A study of Homo sapiens with 9 samples.

Results

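Aminoacyl-tRNA synthetases join each amino acid to its transfer RNA, the step that sets the genetic code in protein synthesis. The genes described here are those of the cytosolic enzymes, which serve ribosomes of the cytoplasm, and of the mitochondrial enzymes, which are encoded in the nucleus, imported, and serve mitochondrial ribosomes. They were chosen by name, as the listed human gene symbols, 19 cytosolic and 16 mitochondrial, with earlier results of these data known. Of these 35 genes, 32 could be measured, 17 cytosolic and 15 mitochondrial, among 19775 genes on the array. MARS1, QARS1 and TARS2 were not analysed here, because every probe set for them named several genes.

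All samples were HepG2, a human cell line grown from a liver tumour, in which many hepatocyte genes are still active. They were exposed to GW7647, a synthetic agonist of the fatty acid receptor PPARα, at 100 nM for 24 h (3 arrays), to GW7647 at 100 nM for 6 h (3 arrays), or to the DMSO vehicle (3 arrays). All groups were grown in the same phenol red-free medium with serum, and RNA was hybridised to 1 Affymetrix array per sample. The labels do not state when vehicle cells were harvested, and agonist exposure and time in culture cannot be told apart. Both agonist groups were set against the same vehicle arrays. The labels number the replicates without saying that they were separate cultures, so the p-values reflect only how far these samples spread, and part of that spread may be technical.

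Values are log2 signals, so that a difference of 1 is a doubling. Signals of different probe sets are not comparable in level, and only changes of the same probe set are compared between groups. A gene was said to have risen or fallen where its Benjamini-Hochberg adjusted p over all 19775 genes was under 0.05 in limma, a linear model that shares the estimate of the spread between genes. Array medians ran from 5.61 to 5.65 at 24 h, from 5.66 to 5.68 at 6 h and from 5.63 to 5.66 in vehicle arrays. Correlations between arrays of 1 group lay between 0.9974 and 0.9988. The number of arrays limits the precision, with a median standard error (SE) of 0.072 for a log2 change. All 8 hepatocyte markers, among them ALB and APOA1, had mean signals between 9.69 and 14.77, and FGB and TTR fell at 24 h, by 0.67 and 0.55. Of 14 measured markers of other liver cells, 3 (COL1A1, EPCAM and PECAM1) had mean signals above 8, and 0 rose or fell at 24 h. Among all genes, 5.38% rose and 2.80% fell at 24 h, so that 0 of 14 lies near the share of all genes. Their summed linear signal ran from 3800 to 4210 at 24 h, from 3630 to 3880 at 6 h and from 3830 to 4160 in vehicle arrays. This sum adds probe sets of unlike level, with mean log2 signals from 3.61 to 11.36. All samples being HepG2, these signals need not come from other cell types. In bulk RNA, fewer cells of a type and less RNA per cell cannot be told apart.

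As background, the cytosolic enzymes also have roles beyond charging. Several form a large multi-synthetase complex held together by the AIMP proteins. Transcription of many cytosolic synthetase genes is known to be raised by ATF4, a transcription factor made when amino acids run short or when the initiation factor eIF2α is phosphorylated. ATF4 binds together with C/EBP proteins to composite DNA elements whose core can be written TGATGNAA. The matches to this core in synthetase promoters are printed here as a description of their sequence; whether they play a part in any change was not tested. Windows ran from 250 bases before to 50 after the annotated start (RefSeq, GRCh38.p14), were searched on both strands for TGATGNAA (TTNCATCA when read from the other strand), and existed for 30 of the 35 genes; a gene with several starts counted as holding the element if any of its windows did. AARS2, LARS1, VARS1, VARS2 and YARS1 had no window. Each line gives the gene, its position and 28 bases along the gene's own strand, 5′ to 3′, with the matched letters in capitals.
CARS1, chr11:3057408-3057435: ggggcggcggTTGCATCAgattctagga
GARS1, chr7:30594835-30594862: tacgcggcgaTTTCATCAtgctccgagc
AARS1, chr16:70289676-70289703: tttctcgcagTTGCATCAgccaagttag
IARS1, chr9:92293693-92293720: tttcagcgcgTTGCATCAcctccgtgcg
TARS1, chr5:33440957-33440984: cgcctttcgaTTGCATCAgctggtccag
NARS1, chr18:57621805-57621832: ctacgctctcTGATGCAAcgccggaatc
MARS1, chr12:57488054-57488081: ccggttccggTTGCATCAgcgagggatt
YARS2, chr12:32756077-32756104: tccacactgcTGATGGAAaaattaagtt
These were the 8 synthetase genes with a match. CARS1, GARS1, IARS1, NARS1 and TARS1 had it close to the start of the window's transcript (the first matched base lay between -33 and 14 bases from it), and MARS1 at -4. CARS1, GARS1, TARS1, SARS1 and WARS1 have 2 windows each, as do some mitochondrial genes. The matches of GARS1 and TARS1 are near a later start, inside the annotated genes, which begin at 30594735 and 33440696. In AARS1 it lay at -187 and in YARS2 at -197.

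After 24 h of GW7647, 11 of the 17 measured cytosolic synthetase genes rose against vehicle, with changes between 1.18-fold and 2.08-fold, and 1 fell. These were the genes for the enzymes charging cysteine (CARS1), tyrosine (YARS1), glycine (GARS1), alanine (AARS1), tryptophan (WARS1), glutamate and proline (EPRS1), isoleucine (IARS1), serine (SARS1), leucine (LARS1), threonine (TARS1) and asparagine (NARS1). Among all genes, 5.38% rose and 2.80% fell by the same test. The median change of the cytosolic genes was 0.42 on the log2 scale, beside 0.0034 over all genes. Of the 15 measured mitochondrial synthetase genes, 0 rose and 0 fell in limma, and their median change was 0.071. Of these 15 genes, 5 had an unadjusted p under 0.05, beside 4198 of all 19775 genes. Arrays at 24 h lay entirely above vehicle arrays for 11 cytosolic and 5 mitochondrial genes, beside 14.0% of all genes, and entirely below for 4 cytosolic genes and 1 mitochondrial gene, beside 8.95%. The count of 11 rests in part on probe sets that can match several transcripts of a gene or family (names ending in _x_at, _s_at or _a_at): without them 12 cytosolic genes were left and 6 of these rose, GARS1, EPRS1, IARS1 and LARS1 having only probe sets of this kind.

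CARS1 (chr11:3000929-3057423) gave the largest change among the synthetases. Its log2 signals were 11.01, 11.04 and 10.92 at 24 h, 10.10, 10.05 and 10.14 at 6 h, and 9.89, 10.00 and 9.91 in vehicle arrays. All 24 h arrays lay above all others, and the 6 h arrays lay slightly above the vehicle arrays. CARS1 signal was 2.08-fold that of vehicle at 24 h (95% interval 1.91 to 2.27; log2 change 1.06 ± 0.0575 SE; limma adjusted p = 1.85e-06). CARS2, which charges cysteine in mitochondria, had 9.69, 9.75 and 9.76 at 24 h, 9.60, 9.53 and 9.65 at 6 h, and 9.63, 9.86 and 9.71 in vehicle arrays. These groups overlapped at 24 h, and the fold for CARS2 had a 95% interval of 0.903 to 1.11.

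YARS1 (chr1:32775239-32817358), the tyrosine enzyme, which is also secreted and cleaved into cytokine-like fragments, was close behind. Its log2 signals were 11.53, 11.47 and 11.45 at 24 h, 10.53, 10.51 and 10.53 at 6 h, and 10.37, 10.49 and 10.47 in vehicle arrays. The 24 h arrays stood far above both other groups, which lay close together. The change was 2.06-fold (95% interval 1.89 to 2.24; limma adjusted p = 1.78e-06). It rests on a probe set of the shared kind. The second YARS1 probe set, of mean signal 7.05, changed by 0.22, with a limma adjusted p of 0.0999 over all probe sets. Its mitochondrial partner YARS2 had 8.13, 8.30 and 7.93 at 24 h, 8.00, 7.94 and 7.92 at 6 h, and 7.90, 7.77 and 7.97 in vehicle arrays, which overlap (log2 change 0.24 ± 0.0875, adjusted p = 0.136).

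GARS1 (chr7:30594735-30634033) encodes the glycine enzyme of both compartments, made from alternative starts. Its log2 signals were 12.12, 12.09 and 12.14 at 24 h, 11.36, 11.30 and 11.36 at 6 h, and 11.19, 11.26 and 11.30 in vehicle arrays. The 24 h arrays did not overlap with either other group, and the change was 1.82-fold (95% interval 1.68 to 1.98; limma adjusted p = 4.07e-06). KARS1, the lysine enzyme, is the other gene that serves both compartments, and its values ran otherwise. KARS1 had 12.79, 12.83 and 12.79 at 24 h, 12.86, 12.84 and 12.84 at 6 h, and 12.84, 12.84 and 12.83 in vehicle arrays. The 24 h arrays lay just below the vehicle arrays, and the KARS1 fold at 24 h was 0.978 with a 95% interval of 0.909 to 1.05 and an adjusted p of 0.776.

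AARS1 (chr16:70252298-70289506), the alanine enzyme, had 11.66, 11.65 and 11.68 at 24 h, 10.98, 10.97 and 11.02 at 6 h, and 10.94, 11.02 and 10.88 in vehicle arrays. Its change was 1.64-fold (log2 0.72 ± 0.0552; limma adjusted p = 2.36e-05), while the 6 h and vehicle arrays overlapped. AARS2, for alanine in mitochondria, had 8.04, 8.16 and 8.20 at 24 h, 8.13, 8.17 and 8.21 at 6 h, and 8.00, 8.04 and 8.18 in vehicle arrays, all 3 groups overlapping. WARS1 (chr14:100333790-100376327), the tryptophan enzyme, also known as an interferon-inducible gene, had 9.99, 9.93 and 9.96 at 24 h, 9.58, 9.49 and 9.47 at 6 h, and 9.30, 9.45 and 9.37 in vehicle arrays. The 3 groups of WARS1 did not overlap, with a change of 1.5-fold at 24 h (95% interval 1.37 to 1.64; limma adjusted p = 0.000174). Its partner WARS2 had 8.35, 8.59 and 8.37 at 24 h, 8.31, 8.30 and 8.38 at 6 h, and 8.23, 8.33 and 8.33 in vehicle arrays (adjusted p = 0.301), the 24 h arrays just above the vehicle arrays. A second WARS2 probe set, of mean signal 7.94, rose by 0.34 (adjusted p = 0.00913 over all probe sets).

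The promoters of the genes with large changes that had a window differ in the element. The full 300-base windows of CARS1, GARS1, AARS1 and WARS1 are shown for that contrast, on each gene's own strand, 5′ to 3′, with the TGATGNAA match in capitals. They lie at chr11:3057374-3057673 (minus strand), chr7:30594628-30594927 (plus strand), chr16:70289457-70289756 (minus strand) and chr14:100376278-100376577 (minus strand).
CARS1: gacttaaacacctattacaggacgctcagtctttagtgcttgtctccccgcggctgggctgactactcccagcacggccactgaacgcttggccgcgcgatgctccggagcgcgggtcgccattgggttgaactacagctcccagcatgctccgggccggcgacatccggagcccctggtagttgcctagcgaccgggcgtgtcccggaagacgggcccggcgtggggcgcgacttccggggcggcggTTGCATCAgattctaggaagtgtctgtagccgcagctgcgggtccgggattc
GARS1: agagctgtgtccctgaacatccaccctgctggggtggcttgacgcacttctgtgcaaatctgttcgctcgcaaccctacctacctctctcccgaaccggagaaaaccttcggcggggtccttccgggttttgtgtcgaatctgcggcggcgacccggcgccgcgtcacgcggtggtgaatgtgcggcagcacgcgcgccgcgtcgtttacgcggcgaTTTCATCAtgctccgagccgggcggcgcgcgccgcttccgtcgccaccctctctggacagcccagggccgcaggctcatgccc
AARS1: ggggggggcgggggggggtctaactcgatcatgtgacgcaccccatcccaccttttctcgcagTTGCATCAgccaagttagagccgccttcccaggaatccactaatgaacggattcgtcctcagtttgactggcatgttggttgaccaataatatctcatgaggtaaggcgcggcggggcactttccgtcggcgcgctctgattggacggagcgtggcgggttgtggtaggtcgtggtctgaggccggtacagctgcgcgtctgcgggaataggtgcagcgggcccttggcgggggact
WARS1: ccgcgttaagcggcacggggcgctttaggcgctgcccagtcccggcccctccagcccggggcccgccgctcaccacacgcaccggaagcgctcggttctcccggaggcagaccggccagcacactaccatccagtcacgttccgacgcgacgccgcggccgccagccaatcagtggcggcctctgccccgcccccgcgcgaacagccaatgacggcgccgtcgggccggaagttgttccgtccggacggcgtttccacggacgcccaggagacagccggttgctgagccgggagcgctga
The printed windows of CARS1, GARS1 and AARS1 hold 1 match each and that of WARS1 holds 0. CARS1, GARS1 and WARS1 each have another window, not printed and without a match. In all, 6 of the 9 genes that rose at 24 h and had a window held the element, as did 1 of 18 that did not rise (YARS2) and 1 of 3 not measured (MARS1). It was present in 3.61% of the 15384 measured genes with a window, and in 3.62% of all 35116 windows. The PPAR element of the DR1 kind, written AGGNCA, any base, AGGNCA, was in the windows of 0 of the 30 synthetase genes, beside 0.364% of the measured genes with a window. A match is a description of the letters in this window. No match says only that those letters are not there.

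The multi-synthetase complex holds 7 of the listed cytosolic enzymes, and 5 were measured. EPRS1 (chr1:219968600-220046505), a fusion of the glutamate and proline enzymes, had 10.98, 11.06 and 11.09 at 24 h, 10.59, 10.58 and 10.59 at 6 h, and 10.41, 10.54 and 10.54 in vehicle arrays, a change of 1.46-fold (limma adjusted p = 0.000259). IARS1 (chr9:92210207-92293697), the isoleucine enzyme, had 12.30, 12.28 and 12.19 at 24 h, 11.82, 11.82 and 11.81 at 6 h, and 11.69, 11.72 and 11.76 in vehicle arrays, a change of 1.45-fold (adjusted p = 0.000189). LARS1 (chr5:146113034-146182650), the leucine enzyme and a leucine sensor upstream of mTORC1, had 10.66, 10.68 and 10.69 at 24 h, 10.39, 10.29 and 10.37 at 6 h, and 10.33, 10.19 and 10.24 in vehicle arrays, a change of 1.34-fold (adjusted p = 0.00123). These 3 complex members rose, with no overlap between 24 h and either other group. The other measured members, KARS1 and RARS1 (arginine), did not pass, and RARS1 had 10.98, 11.01 and 10.94 at 24 h, 11.20, 11.17 and 11.20 at 6 h, and 11.11, 11.12 and 11.11 in vehicle arrays (log2 change at 24 h -0.14 ± 0.0497, adjusted p = 0.122). All RARS1 arrays at 24 h lay below the others. AIMP1, the measured one of the 3 scaffold genes, changed by -0.05 ± 0.0525 (adjusted p = 0.661).

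SARS1 (chr1:109213893-109238182) charges serine transfer RNA and also the transfer RNA that becomes selenocysteine. It had 11.17, 11.21 and 11.21 at 24 h, 10.63, 10.64 and 10.60 at 6 h, and 10.56, 10.81 and 10.66 in vehicle arrays, a change of 1.43-fold (95% interval 1.30 to 1.58; limma adjusted p = 0.000825). TARS1 (chr5:33440696-33468091), the threonine enzyme, had 10.70, 10.77 and 10.69 at 24 h, 10.39, 10.35 and 10.38 at 6 h, and 10.22, 10.42 and 10.38 in vehicle arrays, a change of 1.30-fold (adjusted p = 0.00371). For both genes the 24 h arrays lay above all others, and 1 vehicle array stood somewhat apart. TARS1 did not pass when its 2 probe sets were averaged (log2 change 0.17, adjusted p = 0.111), the second of them having a mean signal of 5.22. NARS1 (chr18:57600656-57621836), the asparagine enzyme, had the smallest rise, 1.18-fold (12.27, 12.39 and 12.37 at 24 h, 12.16, 12.13 and 12.08 at 6 h, and 12.11, 12.07 and 12.14 in vehicle arrays; adjusted p = 0.0233). NARS1 did not pass without vehicle replicate 1, without 24 h replicate 2 or without 24 h replicate 3, with adjusted p values between 0.0552 and 0.0819.

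**Figure D1:**
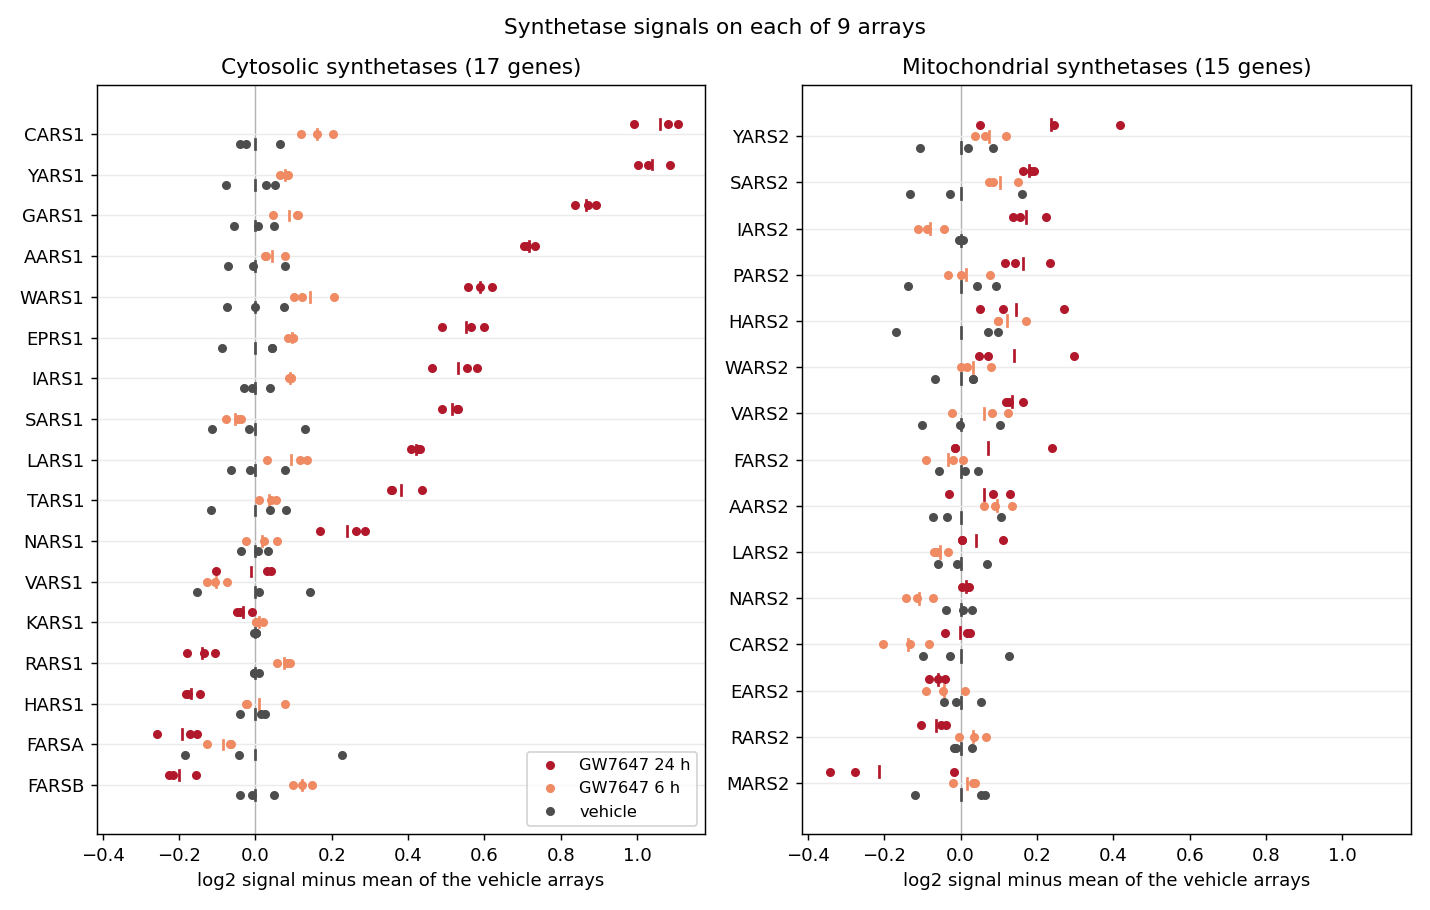
Log2 signal of each synthetase minus its mean over the vehicle arrays, for the 17 cytosolic genes (left) and the 15 mitochondrial genes (right). Points are single arrays of GW7647 24 h, GW7647 6 h and vehicle, and short bars are group means. The 24 h points of 11 cytosolic genes, CARS1 to NARS1, lie to the right of all their vehicle points, while the mitochondrial group means run from -0.21 (MARS2) to 0.24 (YARS2).

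FARSB, the beta subunit of the cytosolic phenylalanine enzyme, was the cytosolic gene that fell at 24 h. It had 10.70, 10.63 and 10.64 at 24 h, 11.01, 10.98 and 10.96 at 6 h, and 10.82, 10.91 and 10.85 in vehicle arrays, so that the 24 h arrays were lowest and the 6 h arrays highest. The fall at 24 h was 0.20 ± 0.0526 on the log2 scale, a fold of 0.871 (limma adjusted p = 0.0412), and it passed in 3 of 19 alternative fits and in 0 of the 9 that left out an array. Its probe set of the unshared kind, of mean signal 4.24, gave 0.04. FARSA, the alpha subunit, had 9.58, 9.69 and 9.67 at 24 h, 9.77, 9.71 and 9.78 at 6 h, and 9.65, 10.07 and 9.80 in vehicle arrays, which overlap at 24 h (log2 change -0.19 ± 0.0900, adjusted p = 0.249). HARS1, the histidine enzyme, had 10.61, 10.61 and 10.64 at 24 h, 10.86, 10.77 and 10.76 at 6 h, and 10.75, 10.81 and 10.80 in vehicle arrays, lower on all 24 h arrays (log2 change -0.17 ± 0.0536, adjusted p = 0.0856). VARS1, the valine enzyme, overlapped between groups, with a fold of 0.992 and a 95% interval of 0.883 to 1.11. FARSA, HARS1, KARS1, RARS1 and VARS1 were the 5 cytosolic genes that did not pass in either direction.

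The synthetases fall into 2 structural classes with unrelated catalytic folds. Of 17 measured class I genes of both compartments, 6 rose at 24 h and 0 fell, where 5.38% of all genes rose and 2.80% fell. Of 15 measured class II genes, 5 rose and FARSB fell. CARS1, YARS1, WARS1, IARS1, LARS1 and EPRS1 are the class I members among the rises, and GARS1, AARS1, SARS1, TARS1 and NARS1 the class II members; EPRS1, whose glutamate part is of class I and whose proline part is of class II, was counted under class I.

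Among mitochondrial genes, the largest changes at 24 h were those of YARS2, described above, and MARS2, the methionine enzyme, at -0.21 ± 0.0850 (limma adjusted p = 0.172). SARS2, for serine, had 8.32, 8.31 and 8.29 at 24 h, 8.27, 8.20 and 8.21 at 6 h, and 7.99, 8.28 and 8.10 in vehicle arrays, a change of 0.18 (adjusted p = 0.169). IARS2, for isoleucine, had 11.65, 11.72 and 11.63 at 24 h, 11.45, 11.40 and 11.38 at 6 h, and 11.50, 11.49 and 11.49 in vehicle arrays. IARS2 arrays at 24 h lay above all others, but the change of 0.17 ± 0.0517 gave the smallest adjusted p of the mitochondrial genes, 0.068. PARS2, the proline enzyme, had 7.40, 7.31 and 7.29 at 24 h, 7.17, 7.14 and 7.25 at 6 h, and 7.03, 7.26 and 7.21 in vehicle arrays, with the 24 h arrays highest (change 0.16, adjusted p = 0.199). EARS2, the glutamate enzyme and like PARS2 a partner of EPRS1, had 9.53, 9.57 and 9.55 at 24 h, 9.56, 9.52 and 9.62 at 6 h, and 9.66, 9.60 and 9.56 in vehicle arrays. LARS2, for leucine, had 9.22, 9.11 and 9.11 at 24 h, 9.05, 9.04 and 9.08 at 6 h, and 9.10, 9.18 and 9.05 in vehicle arrays. For EARS2 and LARS2 the 24 h and vehicle arrays overlapped. HARS2 changed by 0.14 (adjusted p = 0.351) and VARS2 by 0.14 (0.267). FARS2 (phenylalanine), AARS2, LARS2, NARS2, CARS2, EARS2 and RARS2 lay between -0.06 and 0.07. The 95% intervals of the mitochondrial folds reached 1.35 at most, in YARS2, and 0.758 at least, in MARS2.

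Changes of both compartments were set side by side on the same arrays for 12 amino acids that have 1 cytosolic and 1 mitochondrial gene, or, for phenylalanine, FARSA and FARS2. EPRS1, whose partners are EARS2 and PARS2, was left out of these pairs. The difference in log2 signal, cytosolic minus mitochondrial, was higher on all 24 h arrays than on all vehicle arrays for 8 pairs, those of alanine, cysteine, isoleucine, leucine, asparagine, serine, tryptophan and tyrosine. For CARS1 and CARS2, the difference relative to its vehicle mean ran from 0.967 to 1.12 at 24 h and from -0.0615 to 0.0595 in vehicle arrays. For AARS1 and AARS2, it ran from 0.603 to 0.743 at 24 h and from -0.177 to 0.112 in vehicle arrays. The shift was 0.802 for the tyrosine pair, 0.449 for tryptophan, 0.382 for leucine, 0.359 for isoleucine, 0.336 for serine and 0.227 for asparagine. The difference was lower on all 24 h arrays than on all vehicle arrays for the pairs of histidine (-0.311), phenylalanine with FARSA (-0.264) and valine (-0.146). For the arginine pair (-0.0762) the 24 h and vehicle arrays overlapped. An exact two-sided permutation test of 3 arrays against 3 gave p = 0.1 for each pair without overlap, which is the smallest it can give. Of single genes, 14.0% lay entirely above and 8.95% entirely below vehicle at 24 h; the share among other pairs of genes was not computed.

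**Figure D2:**
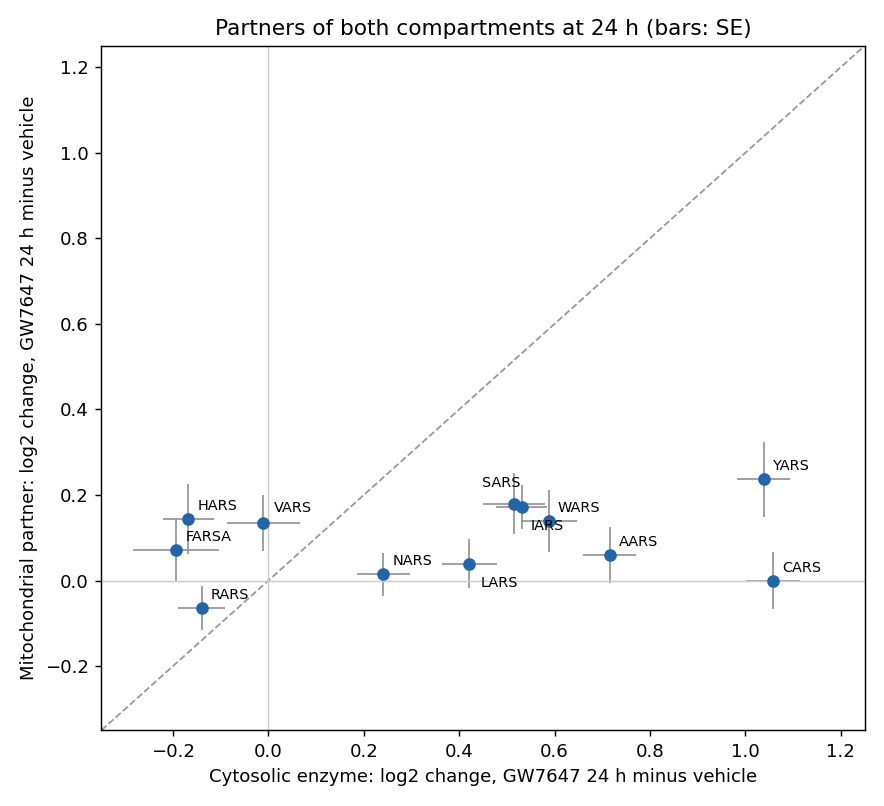
Log2 change at 24 h minus vehicle of the cytosolic enzyme (horizontal axis) and of its mitochondrial partner (vertical axis) for 12 amino acids, with bars of 1 SE; the dashed line marks equal changes. The cysteine and tyrosine pairs lie farthest to the right, at 1.06 and 1.04, with mitochondrial changes of 0.00 and 0.24.

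A further check used the other probe sets of the same genes, which the choice of 1 probe set per gene had set aside. The 32 genes had 67 probe sets, and 18 genes had several. Of the 11 genes that rose, 7 had further probe sets, 12 in all, and 7 of these 12 also rose, beside 3.37% of all 41091 probe sets. CARS1 had further changes of 0.84, 1.18 and 0.22, and the last, not passing, came from a probe set of mean signal 4.90. EPRS1 gave 0.57 and 0.48, WARS1 0.50 and SARS1 0.55, all passing. LARS1 gave 0.37, passing, and 0.20 and -0.05, not passing. Of 23 further probe sets of the other genes, 1 rose, that of WARS2. Of all 35 further probe sets 0 fell, beside 2.30% of all probe sets; those of FARSA (-0.17), KARS1 (-0.06), VARS1 (-0.03) and FARSB (-0.23 and 0.04) did not pass.

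**Figure D3:**
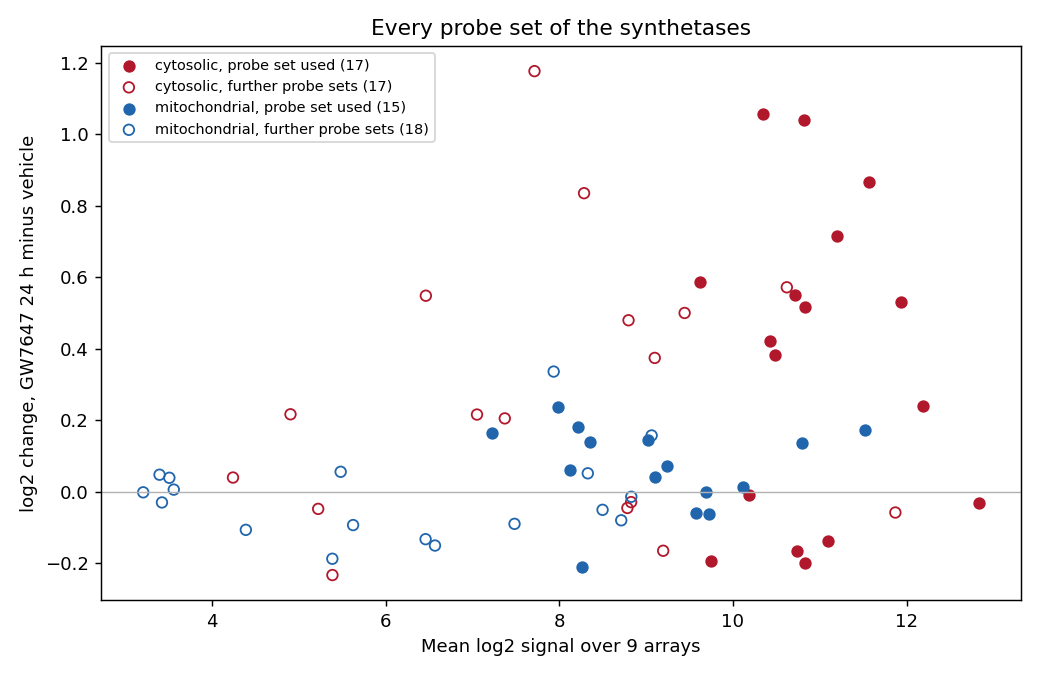
Log2 change at 24 h minus vehicle of every synthetase probe set against its mean log2 signal over 9 arrays; filled points are the probe sets used and open points the further ones. The highest open point is a CARS1 probe set at 1.18, and the highest open mitochondrial point is a WARS2 probe set at 0.34.

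At 6 h, 0 of the 32 synthetase genes rose or fell against vehicle in limma, where 1.64% of all genes rose and 1.91% fell. Unadjusted p values were under 0.05 for 3 genes, all cytosolic, beside 3227 of all 19775 genes. The smallest adjusted p was 0.181, for CARS1 (log2 change 0.16). The median change was 0.076 for cytosolic and 0.017 for mitochondrial genes. The 6 h arrays lay above all vehicle arrays for 7 cytosolic genes (10.5% of all genes), and below them for 2 mitochondrial genes, IARS2 and NARS2 (10.3% of all genes). The 7 were EPRS1, IARS1, RARS1, YARS1, CARS1, WARS1 (0.14, adjusted p = 0.251) and FARSB (0.12, adjusted p = 0.274).

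Directly between both times, with the vehicle arrays cancelling, 11 cytosolic genes were higher at 24 h than at 6 h, where 9.23% of all genes were higher and 4.57% lower. They were the same 11 genes that rose against vehicle, and both comparisons use the same 24 h arrays. YARS1 differed by 0.96, CARS1 by 0.90, GARS1 by 0.78 and AARS1 by 0.67 (limma adjusted p from 4.12e-06 to 3.4e-05). SARS1 differed by 0.57, EPRS1 by 0.46, IARS1 and WARS1 by 0.44, TARS1 by 0.35, LARS1 by 0.33 and NARS1 by 0.22 (adjusted p up to 0.0217). FARSB (-0.32, adjusted p = 0.00218), RARS1 (-0.22, 0.0146) and HARS1 (-0.18, 0.049) were lower at 24 h than at 6 h. HARS1 passed in 8 of 19 alternative fits, 2 of them among the 9 that left out an array, and had an adjusted p of 0.105 with the replicate block. NARS1 passed in 12 of 19 alternative fits and RARS1 in 15 of 19. Without single arrays, NARS1 passed in 5 of 9 fits and RARS1 in 6 of 9. IARS2 was the mitochondrial gene that was higher, by 0.25 (adjusted p = 0.00772).

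Genes that prepare or support the charging step were described by their counts. Of 28 measured genes of transfer RNA maturation and export, 3 rose and 3 fell at 24 h, where 5.38% of all genes rose and 2.80% fell, with a median change of 0.0359. XPOT, the exporter of transfer RNA from the nucleus, had 11.48, 11.67 and 11.42 at 24 h, 11.02, 10.88 and 10.93 at 6 h, and 11.06, 10.72 and 11.04 in vehicle arrays, all 24 h arrays highest. XPOT rose 1.5-fold at 24 h (log2 0.58 ± 0.0963; limma adjusted p = 0.00415) and its second probe set rose by 0.35. TSEN15, of the transfer RNA splicing endonuclease, rose by 0.58 (adjusted p = 0.000363) and ELAC1, a 3′ processing nuclease, by 0.37 (0.00521). ELAC1 passed at 24 h in 16 of 17 alternative fits, and not when its probe sets were averaged (log2 change 0.15, adjusted p = 0.167). Its mean signals, 5.70 at 24 h and 5.33 in vehicle arrays, lay near the array medians. ADAT2, of the adenosine deaminase of the anticodon, fell by 0.48 (adjusted p = 0.00148), and RPP40 and POP1, subunits of ribonuclease P, fell by 0.42 (0.00177) and 0.35 (0.0103). At 6 h, 3 of the 28 rose and 0 fell, where 1.64% of all genes rose and 1.91% fell. The rises were those of ELAC1 (0.58), METTL1, a methyltransferase (0.27), and TRMT5, another (0.24). METTL1 passed in 5 of 18 alternative fits and TRMT5 in 10 of 19, and without single arrays in 1 and 4 of 9 fits; ELAC1 passed in 17 of 17.

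Of 4 genes that help mitochondrial charging, 4 measured cytosolic elongation factors and 8 measured mitochondrial translation factors, 0 rose or fell at 24 h in limma. Their medians were 0.0577, 0.0492 and 0.023. By the same test, 5.38% of all genes rose and 2.80% fell at 24 h. Unadjusted p values were under 0.05 for 1, 0 and 3 genes of these lists, beside 4198 of all 19775 genes. SEPHS2, which makes the selenium donor for selenocysteine, was the 1 of 6 genes of selenocysteine charging that rose, by 0.21 (adjusted p = 0.0496); it passed in 3 of 19 alternative fits and in 0 of the 9 that left out an array. EIF2AK1, an eIF2α kinase, rose by 0.35 (adjusted p = 0.00218). It was the 1 that rose in a list of 7 genes, of eIF2α kinases, phosphatase subunits and eIF2α itself (EIF2S1).

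The list of ATF4 and amino acid response genes, which holds no synthetase, had 17 of 24 genes rising at 24 h and 0 falling, with a median change of 0.815, where 5.38% of all genes rose and 2.80% fell. Like the other lists here, it was drawn up with earlier results of these data known. Its count beside all genes is therefore a description and no independent test. ATF4 itself had 12.59, 12.66 and 12.64 at 24 h, 11.88, 11.85 and 11.96 at 6 h, and 11.62, 11.89 and 11.73 in vehicle arrays, a rise of 1.84-fold at 24 h (limma adjusted p = 3.28e-05). ASNS, asparagine synthetase, which makes asparagine and charges no transfer RNA, had 11.62, 11.78 and 11.56 at 24 h, 9.07, 9.03 and 9.09 at 6 h, and 8.41, 8.59 and 8.42 in vehicle arrays. Its groups did not overlap, with a rise of 9.06-fold at 24 h (adjusted p = 1.69e-09) and of 1.51-fold at 6 h (0.00133). These values rest on a probe set of the shared kind; the other ASNS probe set, of mean signal 3.48, gave log2 changes of 0.16 and 0.04, not passing. PSAT1, of serine synthesis, had 12.58, 12.65 and 12.64 at 24 h, 11.75, 11.73 and 11.79 at 6 h, and 11.70, 11.93 and 11.78 in vehicle arrays, a rise of 1.76-fold at 24 h. CTH, which makes cysteine, rose 4.21-fold, ALDH1L2, of mitochondrial folate metabolism, 3.54-fold, and SLC7A11, the cystine transporter, 3.52-fold at 24 h. At 6 h, 5 of the 24 rose, where 1.64% of all genes rose: SLC7A11 and DDIT4 (1.29 each on the log2 scale), TRIB3 (0.67), ASNS (0.59) and ATF3 (0.44).

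**Figure D4:**
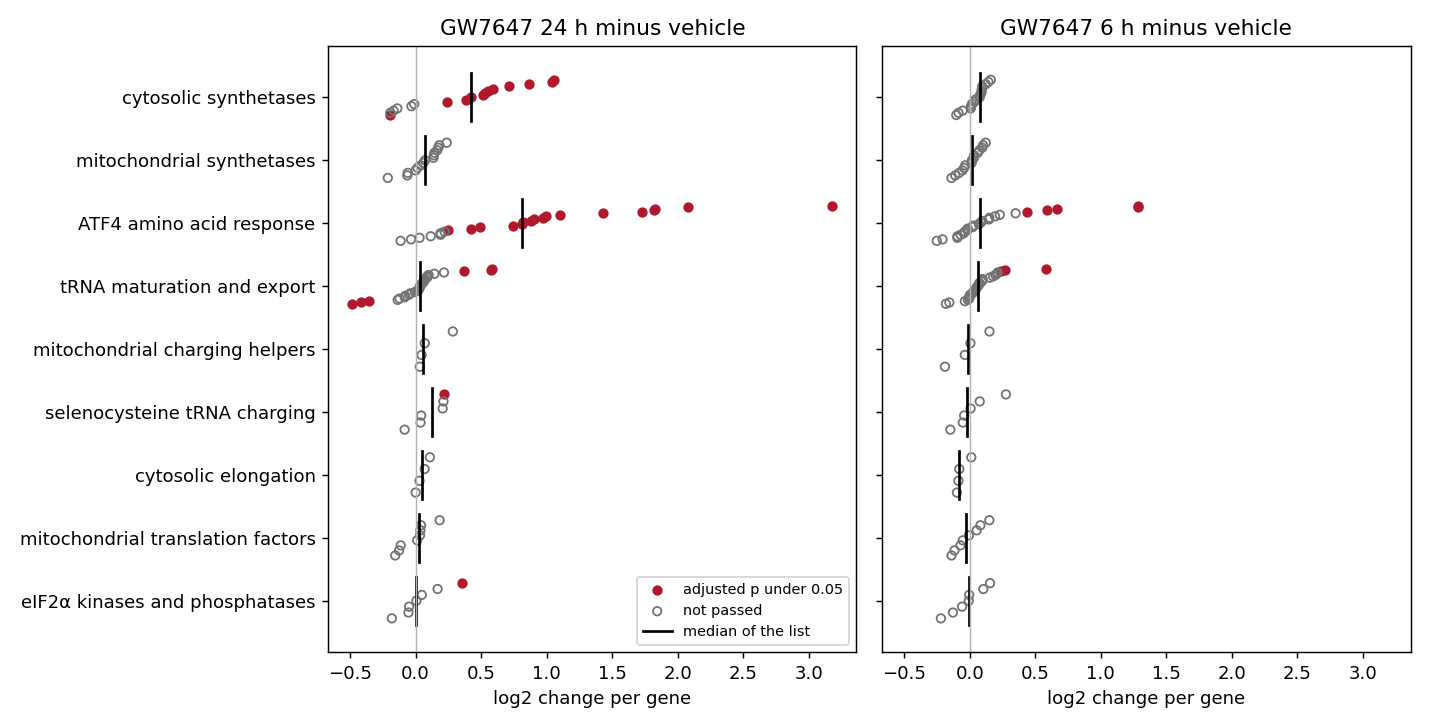
Log2 change of each gene in 9 lists at GW7647 24 h minus vehicle (left) and 6 h minus vehicle (right); filled points had an adjusted p under 0.05, and black bars are list medians. At 24 h the medians are 0.42 for cytosolic synthetases, 0.071 for mitochondrial synthetases and 0.815 for the ATF4 list; at 6 h they are 0.076, 0.017 and 0.078.

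Both measures of RNA integrity overlapped between 24 h and vehicle arrays. Between 24 h and 6 h arrays the actin measure overlapped, while the GAPDH measure was lower on all 24 h arrays. The log2 difference between the 3′ and 5′ probe sets of actin ran from 0.25 to 0.404 at 24 h, from 0.273 to 0.302 at 6 h and from 0.152 to 0.36 in vehicle arrays. That of GAPDH ran from 0.0182 to 0.0223 at 24 h, from 0.0451 to 0.0701 at 6 h and from -0.00821 to 0.0757 in vehicle arrays. Their part in the synthetase changes was not tested.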

How the data were processed

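Expression was measured in 9 HepG2 samples, 3 each of GW7647 24 h, GW7647 6 h and vehicle. The deposited values are log2 probe set signals, made by the authors with RMA per the submitters' processing notes (version not given in the sources used here). RMA equalises the distribution of the arrays, so a change shared by all genes would not show. Values ran from 2.66 to 15.0 with 0 missing, and no array pair was identical.

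Of 54675 probe sets, 62 were controls and 41091 others named 1 gene symbol and were used; 1801 named several. For each gene the probe set of highest mean signal over the 9 arrays was kept, with no filter on signal. Group means were fitted with limma 3.58.1 (lmFit, eBayes) in R 4.3.3 over all 9 arrays (degrees of freedom: 6 residual, 11 total). The 3 comparisons were tested two-sided with Benjamini-Hochberg adjustment over 19775 genes. The fit was tested on simulated data with known changes.

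Symbols follow a platform annotation (0 were updated through the GRCh38.p14 gene table). Coordinates are GRCh38.p14. Promoters came from RefSeq. Protein sequences were not used here. All 32 measured synthetases were accounted for. Values on each array were given for the 10 largest changes past the threshold at 24 h with their partners, and also for members chosen after their values were seen. Of other lists, the 4 largest changes past the threshold were named, with AIMP1, XPOT, ATF4, ASNS and PSAT1; genes that complete a count of 5 or fewer were named after their values were seen. The members and lists were chosen with earlier results of these data known. Alternatives were 10 other fits or settings and 9 fits without 1 array.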

Additional observations from a re-analysis of the deposited data

Results flagged for a closer look

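The change with GW7647 differed between both times, by limma's test of 24 h minus 6 h, for 15 of the 32 measured synthetase genes. Of all genes, 13.8% passed this test in either direction. The log2 difference was 0.96 for YARS1, 0.90 for CARS1, 0.78 for GARS1, 0.67 for AARS1, 0.57 for SARS1, 0.46 for EPRS1, 0.44 for IARS1, 0.44 for WARS1, 0.35 for TARS1, 0.33 for LARS1, 0.22 for NARS1 and 0.25 for IARS2. It was -0.32 for FARSB, -0.22 for RARS1 and -0.18 for HARS1, the last passing in 8 of 19 alternative fits. NARS1 passed in 12 of 19 and RARS1 in 15 of 19. FARSB and RARS1 lay above all vehicle arrays at 6 h and below all of them at 24 h.

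A probe set of WARS2 that the choice of 1 probe set per gene had set aside rose by 0.34 at 24 h against vehicle, while the WARS2 probe set used changed by 0.14 and did not pass.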

How the results depend on the processing

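Of 1809 synthetase changes recomputed under the alternatives, 1743 kept their direction, where called, and their side of the threshold, 47 lost the threshold, 17 gained it and 2 reversed. The count of 11 cytosolic genes rising at 24 h was 10 to 11 without single arrays, and 10 of the 11 genes passed in all 9 such fits.

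Without probe sets ending in _x_at, _s_at or _a_at, 12 cytosolic genes were left and 6 rose at 24 h against vehicle and 6 against 6 h, and the counts of cytosolic falls were 0 against vehicle and 1 against 6 h. YARS1 then changed by 0.22 against vehicle (adjusted p = 0.0906) and by -0.020 against 6 h, FARSB by 0.039, the tyrosine pair by -0.021 and ATF3 at 6 h by -0.005. The ATF4 list had 11 rises at 24 h and 2 at 6 h, and 0 falls at 24 h against 6 h. The list of transfer RNA maturation had 0 rises at 6 h, and 2 rises and 3 falls at 24 h against 6 h. Some genes of both lists, PSAT1, DDIT4 and ELAC1 among them, had no probe set left. These counts are therefore not out of the full lists, and a lower count need not be a lost call. Of the 16788 genes left, 666 rose at 24 h and 209 at 6 h. Between 24 h and 6 h, 1126 were higher and 635 lower.

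The cytosolic fall at 24 h, 1 gene, became 0 with only the compared groups, the mean of all probe sets, array weights, median centring, a threshold of 0.01 and every fit without 1 array. It became 3 with an intensity trend and robust prior and with genes above the median signal, and 2 with quantile normalization. Cytosolic falls against 6 h were 1 at an adjusted p under 0.01 and 1 to 3 without single arrays. The causes were not tested.

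Mitochondrial rises at 24 h were 1 (IARS2) with the trend, with genes above the median signal and with the mean of probe sets, and 0 to 1 without single arrays (SARS2 without vehicle replicate 2, 0.261; YARS2 without 24 h replicate 3, 0.331). Against 6 h they were 2 with genes above the median signal and with the mean of probe sets. Mitochondrial falls against 6 h were 1 with genes above the median signal, quantile normalization and array weights, and 0 to 1 without single arrays, as against vehicle (MARS2 without 24 h replicate 2 in both). Rises of the transfer RNA list at 6 h were 5 with the trend and with genes above the median signal, 1 with only the compared groups and at an adjusted p under 0.01, and 1 to 2 without single arrays; its falls at 6 h were 1 with genes above the median signal, and its rises against 6 h were 2 at an adjusted p under 0.01 and 2 to 4 without single arrays. Falls of the ATF4 list at 6 h were 1 with the trend and with genes above the median signal and 0 to 1 without single arrays, and its falls against 6 h were 0 with the mean of probe sets.

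With replicate number entered as a block, the cytosolic fall at 24 h became 0, the transfer RNA list had 1 rise at 6 h, and NARS1 had an adjusted p of 0.058. Arrays with the same number did not deviate together (correlations from -0.2 to 0.086 over 9 pairs), so the numbers are not taken as pairs.

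Over all genes, 1063 rose and 553 fell at 24 h, and 612 to 1071 rose and 312 to 593 fell without single arrays. When the third group was left out of the fit, 628 rose and 293 fell at 24 h; without shared probe sets 666 rose; with genes above the median signal 858 fell; at a threshold of 0.01, 480 rose and 215 fell. At 6 h, 324 rose and 377 fell, with 127 to 298 and 111 to 339 without single arrays. Other settings gave 122 to 500 rises and 112 to 706 falls at 6 h. The median SE of 0.072 with 3 arrays a group limits which small changes can be detected.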

Other observations

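HARS1 and HARS2, the cytosolic and mitochondrial histidine enzymes, lie head to head on chromosome 5, with 84 bases between their annotated starts (140691370 and 140691455, GRCh38.p14). HARS1 changed by -0.17 and HARS2 by 0.14 at 24 h against vehicle, and neither passed the test.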
